A study of Mus musculus with 20 samples.

Results

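The set described here holds 35 genes of cholesterol synthesis, fatty acid synthesis and cholesterol export, read by symbol from the 42748 genes of the deposited RPKM table and by gene identifier from the 50686 genes of the count table. All 35 were found, and all 35 were among the 16042 genes abundant enough to be tested. The list names 20 sterol genes, 10 fatty acid genes and 5 genes of the liver X receptors (LXR) and their targets. Their RNA was read in RAW264.7, a line of mouse macrophages that develops into bone-resorbing osteoclasts when it receives the cytokine RANKL. The question was how a BET inhibitor acts on that development. Untreated cells, RANKL 0 ng per ml and I-BET 0 nM, are labelled as hour 0. Treated cells received 50 ng per ml of RANKL, 500 nM of I-BET, a BET bromodomain inhibitor, or both together (called combined below), and were taken at 4, 14 and 24 h. The 10 groups held 2 libraries each, 20 in all, from this 1 cell line. The line label reads Raw264.7 although the source label reads Bone marrow, and no vehicle for I-BET is named. The sample names of the untreated libraries begin with 4, as do those of the 4 h libraries, though the untreated titles say hour 0. They were read as hour 0 here, and no untreated cells have a later title. Treatment and time in culture then cannot be told apart in a comparison with untreated cells. No label says that the 2 libraries of a group came from separate cultures, so p-values measure the spread between these libraries, which may be technical.

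Sterol synthesis runs from acetyl-CoA through mevalonate and squalene to lanosterol and cholesterol, and fatty acid synthesis builds palmitate from acetyl-CoA, which is then elongated and desaturated. The genes of both pathways are known targets of the SREBP transcription factors, encoded by Srebf2 and Srebf1, which Insig1 holds in the endoplasmic reticulum when sterols are plentiful. LXR, encoded by Nr1h3 (LXR alpha) and Nr1h2 (LXR beta), binds oxysterols and is known to turn on cholesterol export through Abca1 and Abcg1, Srebf1 itself, and Mylip, a ubiquitin ligase that removes lipoprotein receptors. BET proteins bind acetylated histones, and I-BET displaces them.

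The promoters of the genes were read from RefSeq (GRCm38.p6) as the 250 bases before each annotated start. The table held 27 of the 35 genes, 16 of them sterol genes, and 8 genes had no entry there (Sqle, Fdft1, Fdps, Stard4, Scd1, Scd2, Fads1 and Abcg1). The box CCAAT, which the factor NF-Y is known to bind, was in 15 of 16 sterol genes (93.8%) on either strand, in 2 of 7 fatty acid genes and in 1 of 4 LXR genes, against 37.5% of the 27025 genes in the table. The SREBP site core TCACNCCAC was in Hmgcs1 only, against 1.22% of genes. The E-box CACGTG was in 4 of 16 sterol genes and in Abca1, against 6.86% of genes. A loose form of the LXR direct repeat, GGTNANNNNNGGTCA, was in Abca1, Fasn and 1 of the starts of Srebf1, against 0.189% of genes. Both strands were searched for each motif, and none of the 4 motifs contains another. A match is a description of the sequence and shows no binding. Some of these promoters follow because their genes carry the results below, Hmgcs1, Insig1 and Mvd for the sterol genes that moved together and Fasn and Abca1 for genes that moved apart. Capitals mark the SREBP core in Hmgcs1, CCAAT (or its complement ATTGG) in Insig1 and Mvd, and the LXR repeat, read on the other strand, in Fasn and Abca1, where its 15 letters are the same. Each runs 5′ to 3′ along the strand of its gene.
Hmgcs1, chr13:119690101-119690350, plus strand: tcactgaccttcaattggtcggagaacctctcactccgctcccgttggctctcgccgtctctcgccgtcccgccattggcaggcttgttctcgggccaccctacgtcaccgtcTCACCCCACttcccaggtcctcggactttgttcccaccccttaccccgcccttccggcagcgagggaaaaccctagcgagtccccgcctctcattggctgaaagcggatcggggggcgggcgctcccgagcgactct
Insig1, chr5:28071162-28071411, plus strand: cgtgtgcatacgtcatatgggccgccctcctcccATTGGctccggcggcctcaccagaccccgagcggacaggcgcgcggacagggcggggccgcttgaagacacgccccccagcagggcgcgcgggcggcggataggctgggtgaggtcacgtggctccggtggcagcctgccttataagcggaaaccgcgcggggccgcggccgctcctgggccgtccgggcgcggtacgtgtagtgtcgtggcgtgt
Mvd, chr8:122443423-122443672, minus strand: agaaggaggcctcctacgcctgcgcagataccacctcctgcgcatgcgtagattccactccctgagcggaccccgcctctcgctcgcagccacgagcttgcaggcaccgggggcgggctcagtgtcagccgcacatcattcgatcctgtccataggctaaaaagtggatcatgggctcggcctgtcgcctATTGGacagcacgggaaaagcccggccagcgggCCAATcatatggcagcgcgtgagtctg
Fasn, chr11:120824548-120824797, minus strand: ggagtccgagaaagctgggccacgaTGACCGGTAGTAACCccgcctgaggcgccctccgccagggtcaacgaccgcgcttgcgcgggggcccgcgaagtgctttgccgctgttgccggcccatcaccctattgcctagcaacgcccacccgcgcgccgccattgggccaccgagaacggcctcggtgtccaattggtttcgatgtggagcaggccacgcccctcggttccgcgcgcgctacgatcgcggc
Abca1, chr4:53159896-53160145, minus strand: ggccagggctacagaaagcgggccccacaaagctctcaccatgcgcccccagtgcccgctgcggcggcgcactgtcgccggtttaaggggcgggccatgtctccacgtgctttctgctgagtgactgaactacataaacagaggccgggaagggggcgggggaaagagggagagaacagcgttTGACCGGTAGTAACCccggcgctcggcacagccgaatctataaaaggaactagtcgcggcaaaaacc

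Counts per library ran from 19051780 to 62313792, and the smallest count of any of the 35 genes in any library was 74. The untreated libraries stand apart in that library 1 was the smallest of all, and library 2 had 8.79% of its counts in 5 noncoding genes of ribosomal RNA, where all others had 0.369% to 1.06%. The part of this in the changes below was not tested beyond the values given without that library and a fit without these 5 genes, given at the end. As a check of the labels, genes known to respond to BET inhibitors were read at 4 h, where Hexim1 (1.22) and Brd2 (1.26) rose and Myc (-3.99) fell on the log2 scale with I-BET alone. All 7 macrophage markers were detected. Of 10 markers of other cell types, 3 were at 0 counts in all libraries, no marker passed 5 counts in any library, and the summed level of the 10 ran from 0 to 0.0404. The summed level of the macrophage list was 4730 to 5450 in untreated cells and 1340 to 1630 with RANKL at 24 h, most of it from Lyz2, and the other 6 markers summed to 979 to 1020 and 718 to 749. The 6 osteoclast markers went from 37.4 to 58.5 up to 238 to 292. Fewer cells of a type and less RNA per cell cannot be told apart in bulk samples. Levels below are RPKM rescaled with TMM factors (scaled RPKM), which divide counts by gene length and can be compared between libraries. Between genes they also depend on the gene lengths behind the deposited RPKM, such as 1508 bases for Fads2 and 5453 for Scd2. Changes are log2 fold changes of counts with standard errors (SE), tested with edgeR's quasi-likelihood test, and adjusted p values were taken over all 16042 genes. A gene is said to rise or fall where its adjusted p was under 0.05 in the fit without the replicate block. That fit leaves out the pairing of libraries by number described at the end. A gene it did not call is thus not shown to be unchanged.

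In untreated cells 3 of the 4 desaturases, Scd2, Fads2 and Fads1, stood highest, while Scd1 was at 25.9 and 27.3. Scd2, which puts the double bond into saturated fatty acids, was at 206 and 225, Fads2 at 168 and 169 and Fads1 at 158 and 152. Both Fads genes make polyunsaturated fatty acids. Acly, which makes acetyl-CoA from citrate, followed at 59.04 and 62.2. Next came Hmgcs1, the synthase of HMG-CoA, at 54.03 and 54.2, and Srebf2 at 49.5 and 54.1, which overlap. The median untreated level of all tested genes was 4.65. At the low end were Tm7sf2, a sterol reductase, at 1.26 and 1.63, Abca1 at 1.75 and 1.24, Lpin1, a phosphatidate phosphatase, at 1.66 and 1.20 and Nr1h3 at 1.96 and 2.65. Of these, Tm7sf2, Abca1 and Lpin1 overlap in their libraries, while Nr1h3 lay above all 3. Nr1h2 stood at 9.02 and 10.2, above Nr1h3 in all libraries. Over the 10 groups the highest mean exceeded the lowest by 1.28 to 3.28 times in sterol genes (median 1.93), by 1.76 to 13.4 times in fatty acid genes (median 2.32) and by 1.63 to 6.75 times in LXR genes (median 2.9). Of the 20 sterol genes 15 had their lowest group mean in a group at 4 h and 16 their highest in a group at 24 h. The same held for 8 and 8 of the 10 fatty acid genes, but for 1 and 2 of the 5 LXR genes. In the heatmap of all libraries this shows as blue columns at 4 h in the sterol block and in most rows of the fatty acid block. Lowest and highest groups were not counted over all tested genes, so this order is not shown to be particular to the set.

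**Figure D1:**
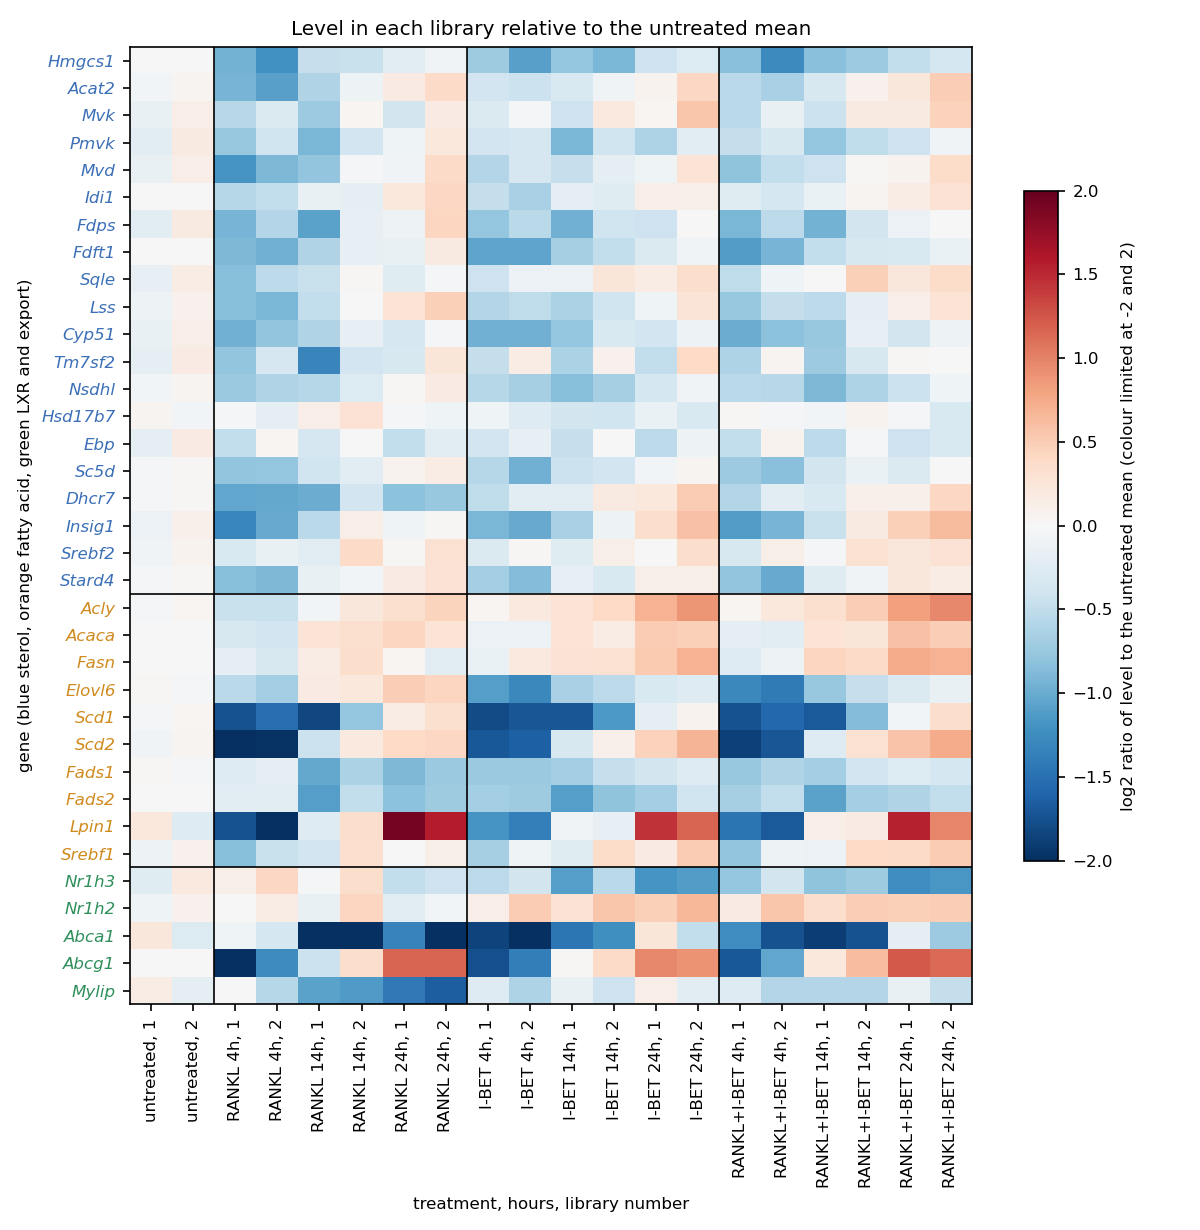
Heatmap of the 35 genes (rows, grouped as sterol, fatty acid and LXR genes) in the 20 libraries (columns, ordered by treatment and hour). Colour gives the log2 ratio of a library's scaled RPKM to the untreated mean, limited to -2 and 2; most sterol rows are blue at 4 h under each treatment and pale or red at 24 h.

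The first comparison asks what 4 h of RANKL did. RANKL cells at 4 h had less RNA of the sterol genes as a group: 12 of 20 fell and none rose, against 1.83% of all tested genes lower and 2.08% higher (3.91% called in all). Over the whole set 19 of 35 fell and none rose. The median change was -0.76 for sterol genes (range -1.16 to -0.11), -0.53 for fatty acid genes and -0.21 for LXR genes, against 0.014 over all tested genes. All 20 sterol genes, and 33 of the 35 genes, were lower in both library numbers when library 1 was set against library 1 and library 2 against library 2, against 32.5% of all tested genes. In 29 of 35 genes the RANKL and untreated libraries did not overlap, against 39.6% of all tested genes (19.8% of all not overlapping and lower).

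Among sterol genes the largest fall was that of Insig1, the sterol-sensing anchor of SREBP (chromosome 5, 28071363 to 28078662, plus strand, mm10). It stood at 24.5 and 28.4 in untreated and 10.7 and 13.1 in RANKL libraries (2.23-fold lower, log2 fold change -1.16, SE 0.24, adjusted p = 0.0142). Hmgcs1 (chromosome 13, 119690462 to 119708086, plus strand), an early enzyme of the mevalonate branch, went from 54.03 and 54.2 to 28.1 and 23.4 (log2 fold change -1.07, SE 0.15, adjusted p = 0.000898). The untreated libraries of Hmgcs1 nearly coincide, and both RANKL libraries lie well below them. Dhcr7 (chromosome 7, 143823145 to 143848410, plus strand), which performs the last step to cholesterol, stood at 8.58 and 8.85 and then 4.25 and 4.27 (log2 fold change -1.03, SE 0.22, adjusted p = 0.0148). Mvd (chromosome 8, 122433596 to 122443422, minus strand), which yields isopentenyl diphosphate, stood at 25.1 and 30.5 and then 12.3 and 14.98 (log2 fold change -1.03, SE 0.25, adjusted p = 0.0375). The groups did not overlap in any of these genes. Also called lower were Acat2, Fdft1, Lss, Stard4, Cyp51, Sc5d, Nsdhl and Idi1, from -1.004 for Acat2 to -0.53 for Idi1. They span the pathway from the thiolase (Acat2) through squalene synthase (Fdft1) and lanosterol synthase (Lss) to the late desaturase (Sc5d). The 8 genes not called were Mvk, Pmvk, Fdps, Sqle, Tm7sf2, Hsd17b7, Ebp and Srebf2. Srebf2 itself stood at 49.5 and 54.1 in untreated and 41.9 and 46.9 in RANKL libraries (log2 fold change -0.22, SE 0.21, adjusted p = 0.796). Of the 8, Fdps, Sqle, Pmvk and Mvk were called lower with the replicate block, which takes the library number into the fit (adjusted p = 0.00038, 2.43e-06, 0.00069 and 0.0231). The calls of Hmgcs1, Fdft1 and Stard4 held with each library of the comparison left out in turn. Dhcr7, Mvd, Cyp51 and Nsdhl lost their calls whichever library was left out (adjusted p = 0.0604 to 0.313). Leaving out RANKL library 1, RANKL library 2 or untreated library 2 ended the call of Insig1 (adjusted p = 0.0528 to 0.149). The call of Acat2 ended without RANKL library 2 or untreated library 2 (adjusted p = 0.0718 to 0.0768). Leaving out RANKL library 1, RANKL library 2 or untreated library 2 ended the call of Lss (adjusted p = 0.0799 to 0.137). The call of Sc5d ended without untreated library 2 (adjusted p = 0.0586). Leaving out RANKL library 1 or untreated library 2 ended the call of Idi1 (adjusted p = 0.0925 to 0.0954). Fdft1 shares 18.3% of its exon bases with Ctsb on the opposite strand, and Tm7sf2 shares 12.1% with Vps51 on its own strand. Cyp51 shares 3.76% with Akap9 and Srebf1 shares 1.93% with Rai1, both on the opposite strand. The counts of these genes are thus uncertain.

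Of the fatty acid genes, 6 of 10 fell at 4 h of RANKL, and in all 10 the RANKL libraries lay below the untreated ones, to be read against the 19.8% of all tested genes given above. Scd2 (chromosome 19, 44293676 to 44306864, plus strand) fell from 206 and 225 to 51.7 and 54.5 (4.06-fold lower, log2 fold change -2.02, SE 0.21, adjusted p = 0.00012). Its neighbour and paralog Scd1 (chromosome 19, 44394451 to 44407709, minus strand) went from 25.9 and 27.3 to 7.92 and 9.29 (log2 fold change -1.63, SE 0.31, adjusted p = 0.00876). Reads shared by these paralogs could have been counted to either. Lpin1, on the way to diacylglycerol (chromosome 12, 16535669 to 16589770, minus strand), stood at 1.66 and 1.20 and then 0.428 and 0.294 (log2 fold change -1.97, SE 0.27, adjusted p = 0.000824). Elovl6, the elongase of palmitate, stood at 12.9 and 12.6 and then 8.78 and 7.89 (log2 fold change -0.61, SE 0.11, adjusted p = 0.00558). The core enzymes moved less: Acly changed by -0.44 and Acaca, acetyl-CoA carboxylase, by -0.36, both called. Fasn, fatty acid synthase, had -0.25 and was not called (adjusted p = 0.382). Srebf1 stood at 21.4 and 24.3 in untreated and 12.6 and 16.7 in RANKL libraries (log2 fold change -0.64, SE 0.30, adjusted p = 0.344, and 0.00623 with the replicate block). The calls of Scd2 and Lpin1 held with each library of the comparison left out in turn. Acly and Acaca lost their calls whichever library was left out (adjusted p = 0.0795 to 0.309). Leaving out RANKL library 1, RANKL library 2 or untreated library 2 ended the call of Scd1 (adjusted p = 0.054 to 0.1). The call of Elovl6 ended without RANKL library 2 (adjusted p = 0.0645).

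Of the LXR genes, Abcg1 alone was called at 4 h of RANKL. Abcg1 (chromosome 17, 31057698 to 31115777, plus strand), which loads cholesterol onto high-density lipoprotein, stood at 23.7 and 23.6 in untreated and 5.97 and 9.94 in RANKL libraries (2.98-fold lower, log2 fold change -1.57, SE 0.29, adjusted p = 0.00674). The other exporter, Abca1 (chromosome 4, 53030787 to 53159895, minus strand), stood at 1.75 and 1.24 in untreated and 1.41 and 1.17 in RANKL libraries, with overlapping libraries (log2 fold change -0.21, SE 0.30, adjusted p = 0.903). The receptors lay on the other side of 0: Nr1h3 was at 2.49 and 3.06 with RANKL (log2 fold change 0.26, SE 0.21, adjusted p = 0.72) and Nr1h2 at 9.67 and 10.6 (log2 fold change 0.077, SE 0.19, adjusted p = 0.965). Leaving out RANKL library 1 or untreated library 2 ended the call of Abcg1 (adjusted p = 0.0543 to 0.09). The number of called genes among the 35 was 6 without untreated library 2, 8 without RANKL library 1 or 2 and 13 without untreated library 1. Over all tested genes the same fits called 155, 241, 271 and 399, against 627 with all libraries. Further genes of these pathways gave 0 of 15 sterol genes, 4 of 15 fatty acid genes and 1 of 12 LXR genes called, all lower. They included Acsl3 (-0.997) and Acss2 (-0.86), which activate fatty acids and acetate, and the LXR partner Rxra (-0.63). The further sterol list, with sterol transport and SREBP processing genes, had no call by edgeR where the 20 named sterol genes had 12. By an unadjusted p under 0.05 it had 3 of 15, DESeq2 called 2, and the replicate block called 0 higher and 2 lower, with 1 higher and 2 lower of the further LXR genes.

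**Figure D2:**
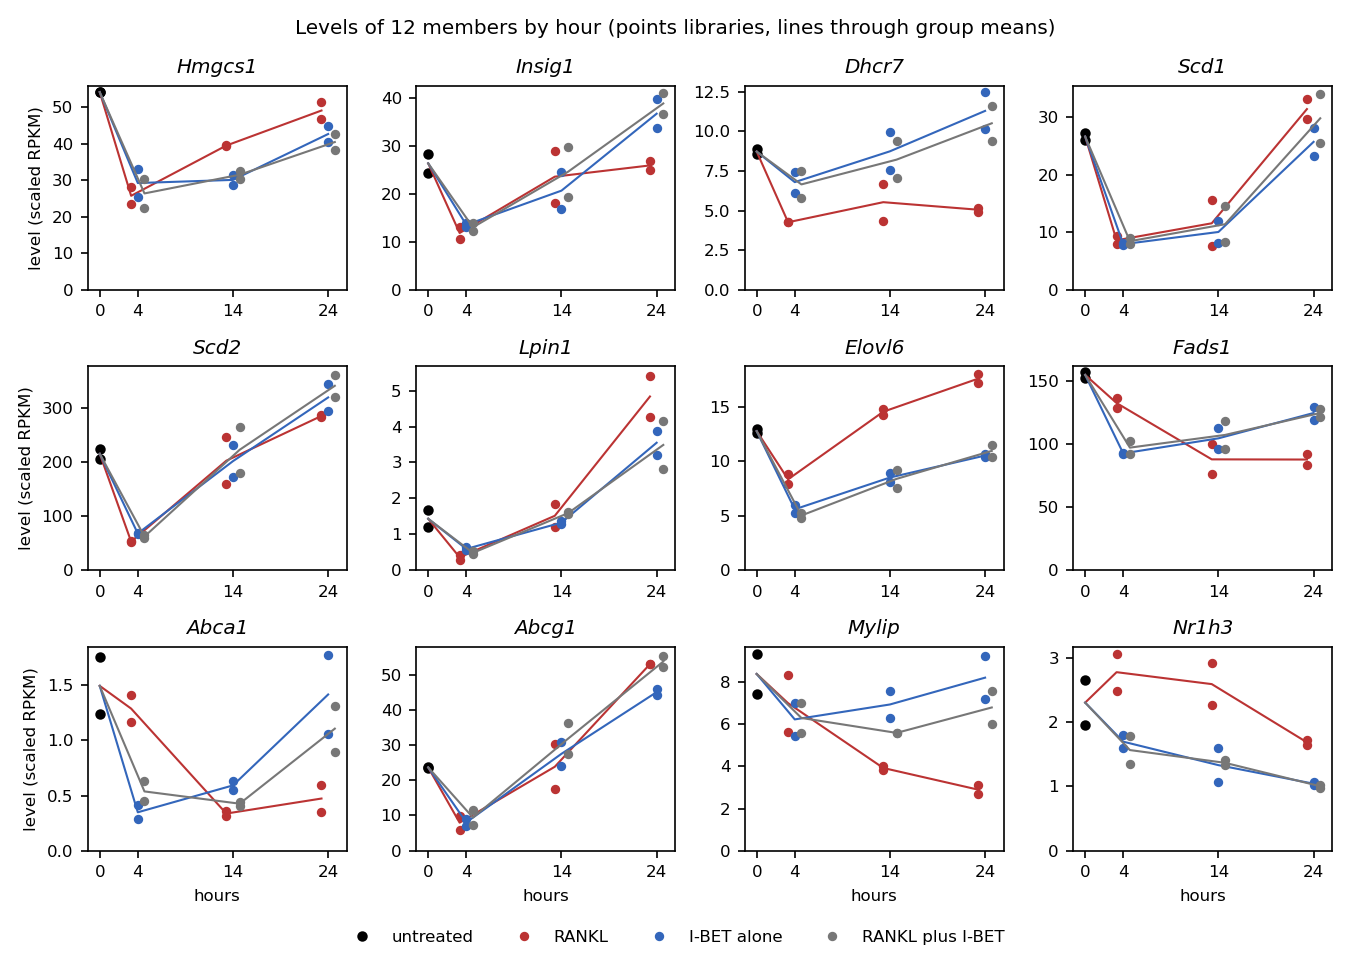
Levels of 12 of the genes (y axis, scaled RPKM, from 0) against hours after treatment (x axis), with a point per library and lines through group means; RANKL and combined points are shifted slightly sideways to separate them. Hmgcs1, Insig1, Scd1, Scd2, Lpin1 and Abcg1 dip at 4 h under all 3 treatments, while Elovl6, Fads1, Dhcr7, Mylip and Nr1h3 separate RANKL from both I-BET treatments at 24 h.

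I-BET alone at 4 h, set against the same untreated libraries, gave a fall of 8 of 20 sterol genes, 6 of 10 fatty acid genes and 2 of 5 LXR genes, and none of the 35 rose. Of all tested genes 6.48% were lower and 4.03% higher (10.5% in all). With the replicate block 26 genes of the set were lower and 1 higher, among them 16 sterol genes lower and 4 LXR genes lower, against 29% of all genes called. The medians were -0.50 (sterol), -0.72 (fatty acid) and -0.45 (LXR), against 0.006 over all genes. Because RANKL and I-BET cells were compared with the same untreated libraries, likeness between their changes is in part shared by construction. Side by side, Hmgcs1 had -1.07 with RANKL and -0.89 with I-BET, Scd1 -1.63 and -1.75, and Abca1 -0.21 and -2.09. Whether the I-BET and RANKL groups differ from each other was not tested.

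Fdft1, which commits farnesyl units to squalene, led the sterol genes at 17.8 and 17.5 in untreated and 8.46 and 8.48 in I-BET libraries (log2 fold change -1.06, SE 0.15, adjusted p = 0.000808). Cyp51, the lanosterol demethylase, stood at 34.2 and 41.4 and then 19.4 and 19.4 (log2 fold change -0.96, SE 0.22, adjusted p = 0.0124). Fdft1 and Cyp51 each share exon bases with a gene on the opposite strand, as given above. Insig1 reached 14.04 and 13.1 (log2 fold change -0.96, SE 0.24, adjusted p = 0.0212) and Hmgcs1 32.97 and 25.5 (log2 fold change -0.89, SE 0.15, adjusted p = 0.00209). None of these genes had overlapping groups. Stard4, Sc5d, Nsdhl and Idi1 changed as well, falling by 0.77 to 0.56 on the log2 scale. Dhcr7 stood at 6.13 and 7.45 (log2 fold change -0.36, SE 0.21, adjusted p = 0.346, and 0.018 with the replicate block), and Srebf2 at 42.6 and 52.8 (log2 fold change -0.12, SE 0.21, adjusted p = 0.818). The calls of Fdft1, Hmgcs1 and Stard4 held with each library of the comparison left out in turn. Insig1 and Nsdhl lost their calls whichever library was left out (adjusted p = 0.0563 to 0.156). Leaving out I-BET library 1, I-BET library 2 or untreated library 2 ended the call of Cyp51 (adjusted p = 0.0709 to 0.114). The call of Sc5d ended without I-BET library 2 (adjusted p = 0.0544). Leaving out I-BET library 2 ended the call of Idi1 (adjusted p = 0.0575).

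In the fatty acid class Scd1 went to 7.74 and 8.11 (log2 fold change -1.75, SE 0.31, adjusted p = 0.00328) and Scd2 to 66.9 and 69.4 (log2 fold change -1.66, SE 0.21, adjusted p = 0.000303). Lpin1 went to 0.634 and 0.554 (log2 fold change -1.26, SE 0.26, adjusted p = 0.00785) and Elovl6 to 5.94 and 5.23 (log2 fold change -1.19, SE 0.11, adjusted p = 3.02e-05). Their untreated libraries, given above, all lie higher. Fads1 (-0.74) and Fads2 (-0.69) fell too. Acly, at 62.2 and 69.5, and Fasn, at 37.03 and 46.4, were on the other side of 0 from the rest (0.12 and 0.041, adjusted p = 0.609 and 0.897). Srebf1 stood at 14.5 and 21.5, overlapping the untreated libraries (log2 fold change -0.35, SE 0.30, adjusted p = 0.561). Among LXR genes, Abca1 fell to 0.412 and 0.284 (4.26-fold lower, log2 fold change -2.09, SE 0.32, adjusted p = 0.00124) and Abcg1 to 6.98 and 9.09 (log2 fold change -1.56, SE 0.29, adjusted p = 0.00397). Nr1h3 stood at 1.60 and 1.79 (log2 fold change -0.45, SE 0.22, adjusted p = 0.23, and 0.0348 with the replicate block), and Nr1h2, the LXR gene with a higher mean, at 10.5 and 13.7 (log2 fold change 0.33, SE 0.19, adjusted p = 0.34, and 0.0236 with the replicate block). The calls of Scd1, Scd2, Elovl6, Fads1, Abca1 and Abcg1 held with each library of the comparison left out in turn. Fads2 lost its call whichever library was left out (adjusted p = 0.0986 to 0.154). Leaving out I-BET library 2 or untreated library 1 ended the call of Lpin1 (adjusted p = 0.0735 to 0.0858). The count of called genes in the set was 9 without I-BET library 2 and 12 without each of the other 3, and over all tested genes it was 516 without I-BET library 2, against 1686 with all libraries. Of the further pathway genes, 1 of 15 sterol (Msmo1, -0.83), 0 of 15 fatty acid and 1 of 12 LXR genes (Rxra, -0.49) fell, and none rose. The 0 fatty acid calls by edgeR compare with 5 genes at an unadjusted p under 0.05 and 2 calls by DESeq2, and with 5 higher and 4 lower under the replicate block. The block also called 2 higher and 4 lower of the further sterol genes and 2 higher and 3 lower of the further LXR genes.

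With RANKL at 14 h the sterol class had a median nearer the untreated level than at 4 h, and at 24 h a median close to 0. The sterol median against untreated cells went from -0.76 at 4 h to -0.32 at 14 h and 0.049 at 24 h (all genes 0.027 and 0.046). At 14 h, 1 gene of the 35 rose and 7 fell, against 8.31% of all genes higher and 10.1% lower (18.4% in all), and 22.9% of the set was called in all. The replicate block gave 1 higher and 17 lower, 12 of the latter sterol genes, with 36.3% of all genes called. At 24 h, 6 rose and 5 fell (31.4% of the set), against 8.04% and 10.9% of all genes (18.9% in all). With the block 3 higher and 2 lower of the sterol genes were called at 24 h. Without untreated library 2 the count at 24 h was 5, without untreated library 1 it was 7, and without RANKL library 1 it was 6. At 14 h it was 3 without RANKL library 1 and 4 without either untreated library. Over all tested genes these fits called 1730, 1954 and 2037 at 24 h, against 3032 with all libraries, and 1894, 1861 and 1571 at 14 h, against 2948.

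Dhcr7 was the sterol gene called lower with RANKL at each hour. It stood at 4.37 and 6.69 at 14 h (log2 fold change -0.66, SE 0.21, adjusted p = 0.0478) and 4.94 and 5.16 at 24 h (log2 fold change -0.79, SE 0.21, adjusted p = 0.0197), against 8.58 and 8.85 untreated. Hmgcs1 was still lower at 14 h, at 39.3 and 39.7 (log2 fold change -0.45, SE 0.15, adjusted p = 0.0465), and at 24 h, at 46.8 and 51.3, was not called (adjusted p = 0.581). Idi1, the isomerase of isopentenyl diphosphate, was the 1 sterol gene to rise at 24 h, from 16.8 and 17.1 to 19.6 and 22.6 (log2 fold change 0.32, SE 0.10, adjusted p = 0.0372). Insig1 stood at 18.2 and 29.1 at 14 h (-0.16, adjusted p = 0.735) and 25.02 and 26.96 at 24 h (-0.025, adjusted p = 0.963), overlapping the untreated libraries at both hours. Srebf2 had 0.11 and 0.17, neither called (adjusted p = 0.806 and 0.66). Hmgcs1 lost its 14 h call whichever library was left out (adjusted p = 0.15 to 0.169). Leaving out 14-hour RANKL library 1, untreated library 1 or untreated library 2 ended the 14 h call of Dhcr7 (adjusted p = 0.14 to 0.31). Dhcr7 lost its 24 h call whichever library was left out (adjusted p = 0.0701 to 0.0991). Leaving out 24-hour RANKL library 2, untreated library 1 or untreated library 2 ended the 24 h call of Idi1 (adjusted p = 0.168 to 0.287).

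The fatty acid class split with RANKL. Fads1 was at 76.1 and 99.8 at 14 h (log2 fold change -0.82, SE 0.13, adjusted p = 0.00069) and 83.3 and 92.3 at 24 h (log2 fold change -0.82, SE 0.13, adjusted p = 0.000546), against 158 and 152. Fads2, its neighbour on chromosome 19, was at 78.9 and 119 (log2 fold change -0.77, SE 0.18, adjusted p = 0.00777) and 95.3 and 103 (log2 fold change -0.76, SE 0.18, adjusted p = 0.00754), against 168 and 169. Both desaturases of polyunsaturated fatty acids thus lay below the untreated libraries at both hours. Scd1 was still low at 14 h, at 7.52 and 15.6 (log2 fold change -1.20, SE 0.31, adjusted p = 0.0144), but at 24 h was at 29.6 and 33.2, above the untreated libraries (adjusted p = 0.661). At 24 h Lpin1 rose to 5.42 and 4.26 (log2 fold change 1.77, SE 0.25, adjusted p = 0.000203) and Elovl6 to 18.02 and 17.1 (log2 fold change 0.46, SE 0.11, adjusted p = 0.00824). Acly (0.39) and Acaca (0.35) rose as well. Acaca, at 8.38 and 8.62, was the 1 gene of the set to rise at 14 h (log2 fold change 0.29, SE 0.077, adjusted p = 0.0169). Srebf1, which encodes the SREBP of fatty acid synthesis, stood at 17.5 and 28.8 at 14 h and at 22.7 and 24.8 at 24 h, not called (adjusted p = 0.986 and 0.933). The 14 h call of Fads1 held with each library of the comparison left out in turn. Acaca lost its 14 h call whichever library was left out (adjusted p = 0.0669 to 0.12). Leaving out 14-hour RANKL library 1 ended the 14 h call of Fads2 (adjusted p = 0.0756). The 14 h call of Scd1 ended without 14-hour RANKL library 1, untreated library 1 or untreated library 2 (adjusted p = 0.0519 to 0.115). The 24 h calls of Lpin1 and Fads1 held with each library of the comparison left out in turn. Acly lost its 24 h call whichever library was left out (adjusted p = 0.0566 to 0.183). Leaving out 24-hour RANKL library 1 ended the 24 h call of Fads2 (adjusted p = 0.0592). The 24 h call of Elovl6 ended without 24-hour RANKL library 1 or untreated library 2 (adjusted p = 0.0547 to 0.0721). Leaving out 24-hour RANKL library 1 or untreated library 2 ended the 24 h call of Acaca (adjusted p = 0.0633 to 0.0774).

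The LXR targets moved in both directions. Abca1 fell to 0.313 and 0.361 at 14 h (log2 fold change -2.14, SE 0.32, adjusted p = 0.000387) and 0.593 and 0.353 at 24 h (log2 fold change -1.65, SE 0.32, adjusted p = 0.00214). Mylip (chromosome 13, 45389742 to 45412019, plus strand) fell from 9.35 and 7.44 to 4.01 and 3.85 (log2 fold change -1.09, SE 0.21, adjusted p = 0.00257) and 3.11 and 2.69 (log2 fold change -1.53, SE 0.22, adjusted p = 0.000188). Abcg1 went the other way, from 23.7 and 23.6 to 53.03 and 52.9 at 24 h (log2 fold change 1.163, SE 0.28, adjusted p = 0.0103), after 17.5 and 30.2 at 14 h. At 24 h the exporters lay on opposite sides of the untreated libraries. Nr1h3 was at 2.26 and 2.92 at 14 h (adjusted p = 0.707) and 1.65 and 1.73 at 24 h (log2 fold change -0.46, SE 0.22, adjusted p = 0.175, and 0.0275 with the replicate block), and Nr1h2 at 8.64 and 12.97 at 14 h and 8.19 and 9.29 at 24 h (adjusted p = 0.646 and 0.695). The 14 h calls of Abca1 and Mylip held with each library of the comparison left out in turn. The 24 h calls of Abca1 and Mylip held with each library of the comparison left out in turn. Leaving out untreated library 1 or untreated library 2 ended the 24 h call of Abcg1 (adjusted p = 0.0658 to 0.0747). Of the 7 macrophage markers 5 fell and 1, Spi1, rose at 14 h (0.52), and 5 fell and none rose at 24 h, from -2.79 for Adgre1 and -2.45 for Lyz2 to -0.81 for Csf1r. Cd68 was not called at either hour, nor Spi1 at 24 h (0.33). Of the 6 osteoclast markers 4 rose at 14 h and 6 at 24 h, with Acp5 at 3.25 and Ctsk at 1.82. The part of these shifts in the changes above was not tested. Of the further LXR genes, 5 of 12 fell and none rose at 14 h, and 6 fell and 1 rose at 24 h. They included Arl4c, a small GTPase and known LXR target (-4.20 at 24 h), and Smpdl3a (-2.83). The further sterol genes gave 2 higher and 2 lower of 15 at 14 h and 2 and 3 at 24 h, and the further fatty acid genes 0 and 2, then 1 and 1, of 15. Under the replicate block the further sterol genes gave 5 higher and 5 lower at 14 h and 4 higher and 5 lower at 24 h, the fatty acid genes 3 higher and 2 lower and 3 higher and 3 lower, and the LXR genes 1 higher and 7 lower at 14 h.

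With I-BET alone, 10 of 35 genes fell and none rose at 14 h, against 8.37% of all genes lower and 5.29% higher (13.7% in all). At 24 h, 5 rose and 1 fell, against 7.5% and 10.2% (17.7% in all), which is 17.1% of the set. With the replicate block these counts were 4 higher and 17 lower at 14 h (29.8% of all genes called) and 11 and 6 at 24 h (36.2%). The sterol median went from -0.50 at 4 h to -0.34 and 0.053 (all genes 0.020 and 0.018). At 24 h no sterol gene was called by edgeR, 1 had an unadjusted p under 0.05, and DESeq2 called 0, while the replicate block called 4 higher and 2 lower. At 14 h the block called 11 sterol genes, all lower, where 4 were called without it. In the fatty acid class it called 3 higher and 4 lower at 14 h and 5 higher and 3 lower at 24 h. The 14 h count was 4 without I-BET library 1 and 6 without either untreated library, and over all tested genes 1339, 1244 and 1229, against 2192 with all libraries.

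At 14 h Hmgcs1 was at 31.5 and 28.6 (log2 fold change -0.85, SE 0.15, adjusted p = 0.00156) and Nsdhl, a late dehydrogenase, at 10.4 and 11.8, against 18.1 and 19.4 untreated (log2 fold change -0.76, SE 0.15, adjusted p = 0.00331). Fdft1 (-0.57) and Hsd17b7 (-0.39), a ketoreductase, fell by less. Insig1 had -0.35 at 14 h and, at 33.7 and 39.9, lay above both untreated libraries at 24 h (log2 fold change 0.48, SE 0.24, adjusted p = 0.201, and 0.0232 with the replicate block). Srebf2 had -0.050 and 0.19 (adjusted p = 0.948 and 0.636). Among fatty acid genes, Scd1 at 8.11 and 11.98 (log2 fold change -1.41, SE 0.31, adjusted p = 0.00734), Fads2 (-0.94), Elovl6 (-0.59) and Fads1 (-0.57) were lower at 14 h. At 24 h Lpin1 rose to 3.88 and 3.22 (log2 fold change 1.32, SE 0.25, adjusted p = 0.00207) and Acly to 97.8 and 112 (log2 fold change 0.79, SE 0.11, adjusted p = 0.000258). Fasn rose to 58.2 and 65.7 from 40.7 and 40.3 (log2 fold change 0.61, SE 0.12, adjusted p = 0.00283) and Acaca by 0.50. All 3 enzymes from citrate to palmitate (Acly, Acaca and Fasn) were thus called higher with I-BET at 24 h. Srebf1 had 0.092 and 0.34 (adjusted p = 0.924 and 0.508). Calls of Hmgcs1, Nsdhl, Fads2 and Elovl6 at 14 h and of Lpin1, Acly, Fasn and Acaca at 24 h held with each library left out in turn. Fdft1 and Hsd17b7 lost their 14 h calls whichever library was left out (adjusted p = 0.0642 to 0.188). Leaving out 14-hour I-BET library 1 ended the 14 h call of Scd1 (adjusted p = 0.0903). The 14 h call of Fads1 ended without 14-hour I-BET library 1, untreated library 1 or untreated library 2 (adjusted p = 0.0518 to 0.121).

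Nr1h3 was called lower with I-BET at both later hours. It was at 1.07 and 1.59 at 14 h (log2 fold change -0.81, SE 0.22, adjusted p = 0.0249) and 1.02 and 1.07 at 24 h (log2 fold change -1.15, SE 0.22, adjusted p = 0.00222), against 1.96 and 2.65 untreated. Nr1h2 was on the other side, at 11.7 and 14.1 (log2 fold change 0.42, SE 0.19, adjusted p = 0.193, and 0.00348 with the replicate block) and 13.3 and 15.2 (log2 fold change 0.57, SE 0.19, adjusted p = 0.0589, and 0.00018 with the replicate block). Abca1 was low at 14 h, at 0.549 and 0.635 (log2 fold change -1.33, SE 0.31, adjusted p = 0.0107), and at 24 h, at 1.77 and 1.06, overlapped the untreated libraries (log2 fold change -0.069, adjusted p = 0.92). Abcg1 rose to 45.96 and 44.1 at 24 h (log2 fold change 0.93, SE 0.28, adjusted p = 0.0356). Leaving out 14-hour I-BET library 1 or untreated library 2 ended the 14 h call of Nr1h3 (adjusted p = 0.237 to 0.291). The 14 h call of Abca1 ended without 14-hour I-BET library 1 or untreated library 1 (adjusted p = 0.0884 to 0.101). The 24 h call of Nr1h3 held with each library of the comparison left out in turn. Abcg1 lost its 24 h call whichever library was left out (adjusted p = 0.106 to 0.149). Of the further LXR genes 5 of 12 fell at each hour and none rose. In the fatty acid list 4 of 15 rose at each hour, with Acss2 at 0.77 and 1.13, and 1, Me1 (-0.91), fell at 24 h. In the sterol list Soat1, which esterifies cholesterol, was the 1 called gene at either hour (0.46 and 0.46). The replicate block gave 3 higher and 5 lower at 14 h and 6 higher and 3 lower at 24 h for the further sterol genes, 7 higher and 2 lower and 8 higher and 2 lower for fatty acid genes, and 3 higher and 5 lower at 24 h for LXR genes.

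Setting 24 h against 4 h within a treatment leaves out the untreated libraries, but shares the libraries of 4 h with the comparisons above. In this comparison the sterol genes rose under each treatment: 12 of 20 with RANKL, 10 with I-BET alone and 9 with both, and none fell. Of the fatty acid genes 6, 7 and 7 of 10 rose, and 2, 0 and 0 fell. Of the LXR genes 1, 2 and 2 of 5 rose, and 3, 0 and 0 fell. Over the set this made 19 higher and 5 lower with RANKL (9.77% and 12.6% of all genes, 22.4% in all), 19 and 0 with I-BET (4.91% and 5.52%, 10.4%) and 18 and 0 with both (6.75% and 8.35%, 15.1%). With the replicate block the counts were 28 and 1 with I-BET (30.6% of all genes) and 27 and 1 with both (36.1%). Among these were 16 and 16 sterol genes, all higher, and 3 higher and 1 lower LXR genes with I-BET. The sterol medians were 0.81, 0.55 and 0.65, against 0.011, -0.007 and -0.046 over all genes. The group mean at 14 h lay above that at 4 h and below that at 24 h in 15 of 20 sterol genes under each treatment, and in 7, 9 and 9 of 10 fatty acid genes. The share of all tested genes with such an order was not computed.

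Lpin1 moved most, at 3.73 (RANKL), 2.58 (I-BET) and 2.84 (both), SE 0.28, 0.26 and 0.26. Its libraries with both agents stood at 0.523 and 0.446 at 4 h and 4.15 and 2.83 at 24 h. Scd2 had 2.43, 2.23 and 2.45, with 58.8 and 66.1 going to 321 and 362 in the combined libraries. Abcg1 had 2.74, 2.49 and 2.51, with 7.28 and 11.5 going to 55.4 and 52.01. Scd1 (1.87, 1.70 and 1.82) and Insig1 (1.13, 1.44 and 1.58) rose in all 3 as well. Adjusted p of these 5 genes was at most 0.00366 and no call of theirs was lost with a library left out. With RANKL the sterol genes of largest rise were Acat2 (11.8 and 10.7, then 25.1 and 29.3, log2 fold change 1.28), Lss (1.26), Mvd (1.20) and Insig1. With I-BET they were Insig1, Stard4 (0.89), Fdft1 (0.88) and Sc5d (0.76), and with both Insig1, Stard4 (1.08), Acat2 (0.96) and Mvd (0.86). Against the trend, Abca1 (-1.45), Mylip (-1.28), Nr1h3 (-0.72), Fads1 (-0.60) and Fads2 (-0.54) fell with RANKL from 4 to 24 h. Of these, Abca1 rose with I-BET (2.02) and with both (1.04). Mvd with both agents aside, the calls of these sterol genes held with each library left out, under the treatment each is named with. Elsewhere some ended with a library left out, those of Acat2 and Lss with I-BET and of Lss and Sc5d with both. Among the other sterol genes, so did the calls of Fdps and Cyp51 with RANKL. The calls of Hmgcs1, Cyp51 and Dhcr7 with I-BET and of Hmgcs1 with both ended likewise. The RANKL calls of Mylip and Fads1 held with each library of the comparison left out in turn. Fads2 lost its RANKL call whichever library was left out (adjusted p = 0.0925 to 0.178). Leaving out 24-hour RANKL library 2 ended the RANKL call of Abca1 (adjusted p = 0.0519). The RANKL call of Nr1h3 ended without 24-hour RANKL library 1, 24-hour RANKL library 2 or 4-hour RANKL library 2 (adjusted p = 0.0863 to 0.168). Mvd lost its combined call whichever library was left out (adjusted p = 0.062 to 0.224). Leaving out 24-hour combined library 1, 4-hour combined library 1 or 4-hour combined library 2 ended the combined call of Abca1 (adjusted p = 0.0557 to 0.248). Srebf1 had 0.70, 0.69 and 0.85 and was not called (adjusted p = 0.119, 0.174 and 0.0742), but was called with the replicate block (0.000919, 0.00171 and 0.000197). So was Srebf2, whose changes were 0.39, 0.30 and 0.35 (adjusted p = 0.00217, 0.0168 and 0.00353 with the block).

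**Figure D3:**
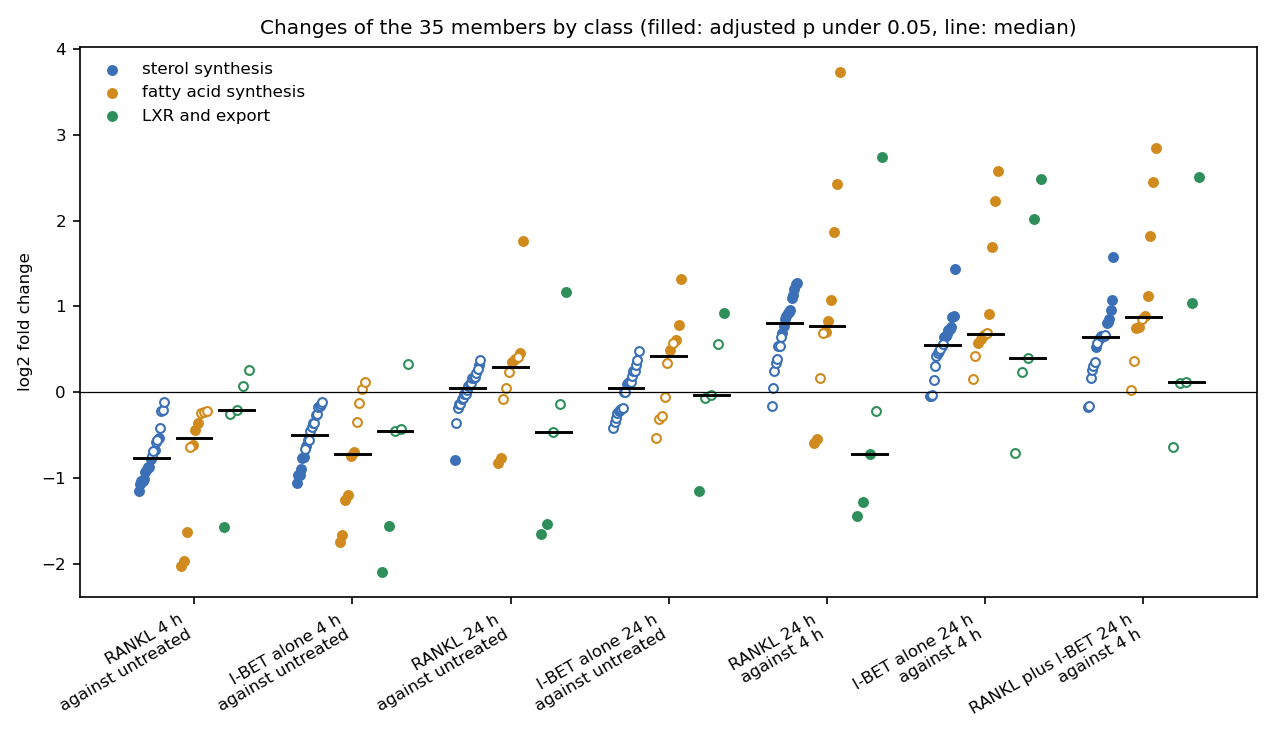
Log2 fold changes (y axis) of the 35 genes in 7 comparisons (x axis), coloured by class, with a point per gene, filled where adjusted p was under 0.05, and a black line at each class median. Sterol genes all lie below 0 at 4 h, around 0 at 24 h against untreated cells, and mostly above 0 at 24 h against 4 h.

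Adding I-BET to RANKL gave few calls among sterol genes. Of 20 sterol genes none was called at 4 and 14 h by edgeR (3 and 3 at an unadjusted p under 0.05, 1 and 1 by DESeq2), and 1 at 24 h. Under the replicate block sterol genes gave 6 higher and 0 lower at 4 h, 2 higher and 1 lower at 14 h and 4 higher and 3 lower at 24 h. The fatty acid class gave 2 higher and 1 lower at 14 h and 5 higher and 2 lower at 24 h with the block, and the LXR class 2 higher and 1 lower at 14 h. The sterol medians were 0.13, 0.010 and -0.044, and those of all genes 0.0010, -0.033 and -0.053. In the whole set 1 rose and 4 fell at 4 h (4.93% and 6.46% of all genes, 11.4% in all), none rose and 2 fell at 14 h (10.8% and 11.2%, 22.1%), and 7 rose and 2 fell at 24 h (13.9% and 12.9%, 26.8%). The share called was 14.3%, 5.71% and 25.7%. With the replicate block the counts were 8 higher and 5 lower, 6 and 3, and 12 and 6 (28.1%, 40.2% and 46.6% of all genes called). The count at 4 h was 2 without combined library 2 and 3 without each of the other 3. At 14 h it was 1 without combined library 1 and 4 without RANKL library 2. At 24 h it was 5 without combined library 1. Over all tested genes these fits called 896 at 4 h without combined library 2 (against 1828), 2331 and 2572 at 14 h (3538) and 3044 at 24 h (4299).

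Elovl6 and Nr1h3 were lower with I-BET at each of the 3 hours. Elovl6 (chromosome 3, 129532386 to 129638495, plus strand) stood at 8.78, 7.89, 14.3, 14.8, 18.02 and 17.1 with RANKL at 4, 14 and 24 h, and at 5.23, 4.81, 7.52, 9.23, 10.4 and 11.5 with both. The changes were -0.73, -0.79 and -0.68 (SE 0.11, 0.11 and 0.11, adjusted p = 0.00075, 0.000145 and 0.000332), and each held with every library left out in turn. Nr1h3 (chromosome 2, 91184061 to 91202834, minus strand) stood at 2.49, 3.06, 2.26, 2.92, 1.65 and 1.73 with RANKL and 1.35, 1.78, 1.32, 1.41, 0.978 and 1.03 with both (-0.83, -0.92 and -0.75, adjusted p = 0.0224, 0.0074 and 0.0212). The libraries of the 2 treatments did not overlap in either gene at any hour. Leaving out 4-hour RANKL library 2 or 4-hour combined library 1 ended the 4 h call of Nr1h3 (adjusted p = 0.181 to 0.194). Leaving out 14-hour RANKL library 2 or 14-hour combined library 1 ended the 14 h call of Nr1h3 (adjusted p = 0.0603 to 0.0867). Nr1h3 lost its 24 h call whichever library was left out (adjusted p = 0.0709 to 0.115).

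Acly, Fads1 and Abca1 were each called at 4 and 24 h but not at 14 h. Acly was higher with I-BET, at 62.6 and 70.1 against 44.5 and 44.7 at 4 h (log2 fold change 0.57, SE 0.11, adjusted p = 0.00526) and 107 and 118 against 75.9 and 82.5 at 24 h (log2 fold change 0.51, SE 0.11, adjusted p = 0.00423). Fads1 fell at 4 h, to 92.01 and 102 from 129 and 136 (log2 fold change -0.45, SE 0.13, adjusted p = 0.042), and rose at 24 h, to 128 and 121 from 83.3 and 92.3 (log2 fold change 0.51, SE 0.13, adjusted p = 0.0107). Abca1 did likewise, at 0.629 and 0.446 against 1.41 and 1.17 at 4 h (log2 fold change -1.26, SE 0.31, adjusted p = 0.0173) and 1.31 and 0.899 against 0.593 and 0.353 at 24 h (log2 fold change 1.22, SE 0.31, adjusted p = 0.00943). For both genes the combined libraries lay below the RANKL libraries at 4 h and above them at 24 h. Fads1 lost its 4 h call whichever library was left out (adjusted p = 0.099 to 0.239). Leaving out 4-hour combined library 2 ended the 4 h call of Acly (adjusted p = 0.0653). The 4 h call of Abca1 ended without 4-hour RANKL library 1 or 4-hour combined library 2 (adjusted p = 0.102 to 0.154). Leaving out 24-hour combined library 2 ended the 24 h call of Acly (adjusted p = 0.0504). The 24 h call of Fads1 ended without 24-hour RANKL library 1 or 24-hour combined library 1 (adjusted p = 0.0715 to 0.0762). Leaving out 24-hour RANKL library 2 or 24-hour combined library 1 ended the 24 h call of Abca1 (adjusted p = 0.0867 to 0.0932).

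At 24 h Mylip stood at 3.11 and 2.69 with RANKL and 7.57 and 6.03 with both (2.35-fold higher, log2 fold change 1.23, SE 0.21, adjusted p = 0.000689). Dhcr7, the 1 sterol gene called, stood at 4.94 and 5.16 with RANKL and 9.40 and 11.6 with both (log2 fold change 1.06, SE 0.21, adjusted p = 0.00215). Fasn went from 41.7 and 35.1 with RANKL to 67.99 and 65.3 with both (log2 fold change 0.79, SE 0.12, adjusted p = 0.000249), and Nr1h2 from 8.19 and 9.29 to 13.4 and 13.5 (log2 fold change 0.62, SE 0.19, adjusted p = 0.0263). In each of these the groups did not overlap, and the combined libraries were the higher. Insig1 stood at 25.02 and 26.96 with RANKL and 36.8 and 41.1 with both (log2 fold change 0.58, SE 0.24, adjusted p = 0.0869, and 0.00542 with the replicate block). Srebf2 had 0.13, 0.025 and 0.092 at the 3 hours, not called (adjusted p = 0.84, 0.955 and 0.798). Srebf1 had 0.23, 0.15 and 0.39 (adjusted p = 0.773, 0.793 and 0.376, with 0.033 at 24 h with the block). The calls of Mylip, Dhcr7 and Fasn held with each library of the comparison left out in turn. Nr1h2 lost its call whichever library was left out (adjusted p = 0.0503 to 0.15). Of the further fatty acid genes 5 of 15 rose at 4 h, 4 at 14 h and 5 at 24 h, and 1 fell at 24 h. Acss2, which makes acetyl-CoA from acetate, rose at each (1.08, 1.94 and 1.75). Of the further LXR genes Arl4c rose at each hour (0.81, 3.18 and 3.75), and the list gave 1, 1 and 4 of 12 higher and 0, 2 and 2 lower. The further sterol list gave 1, 3 and 6 of 15 higher and 0, 2 and 3 lower. Under the block the sterol list gave 5 higher and 0 lower, 8 higher and 5 lower and 10 higher and 5 lower at the 3 hours, the fatty acid list 7 higher and 1 lower, 5 higher and 2 lower and 7 higher and 3 lower, and the LXR list 3 higher and 1 lower at 4 h and 4 higher and 2 lower at 14 h. At 24 h 3 of 7 macrophage markers rose and 2 fell. Their summed level was 2420 to 2830 with both agents against 1340 to 1630 with RANKL, but without Lyz2 it was 638 to 646 against 718 to 749, the other way round. The summed level of osteoclast markers was 7.04 to 10.4 against 238 to 292. The part of these shifts in the changes was not tested.

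**Figure D4:**
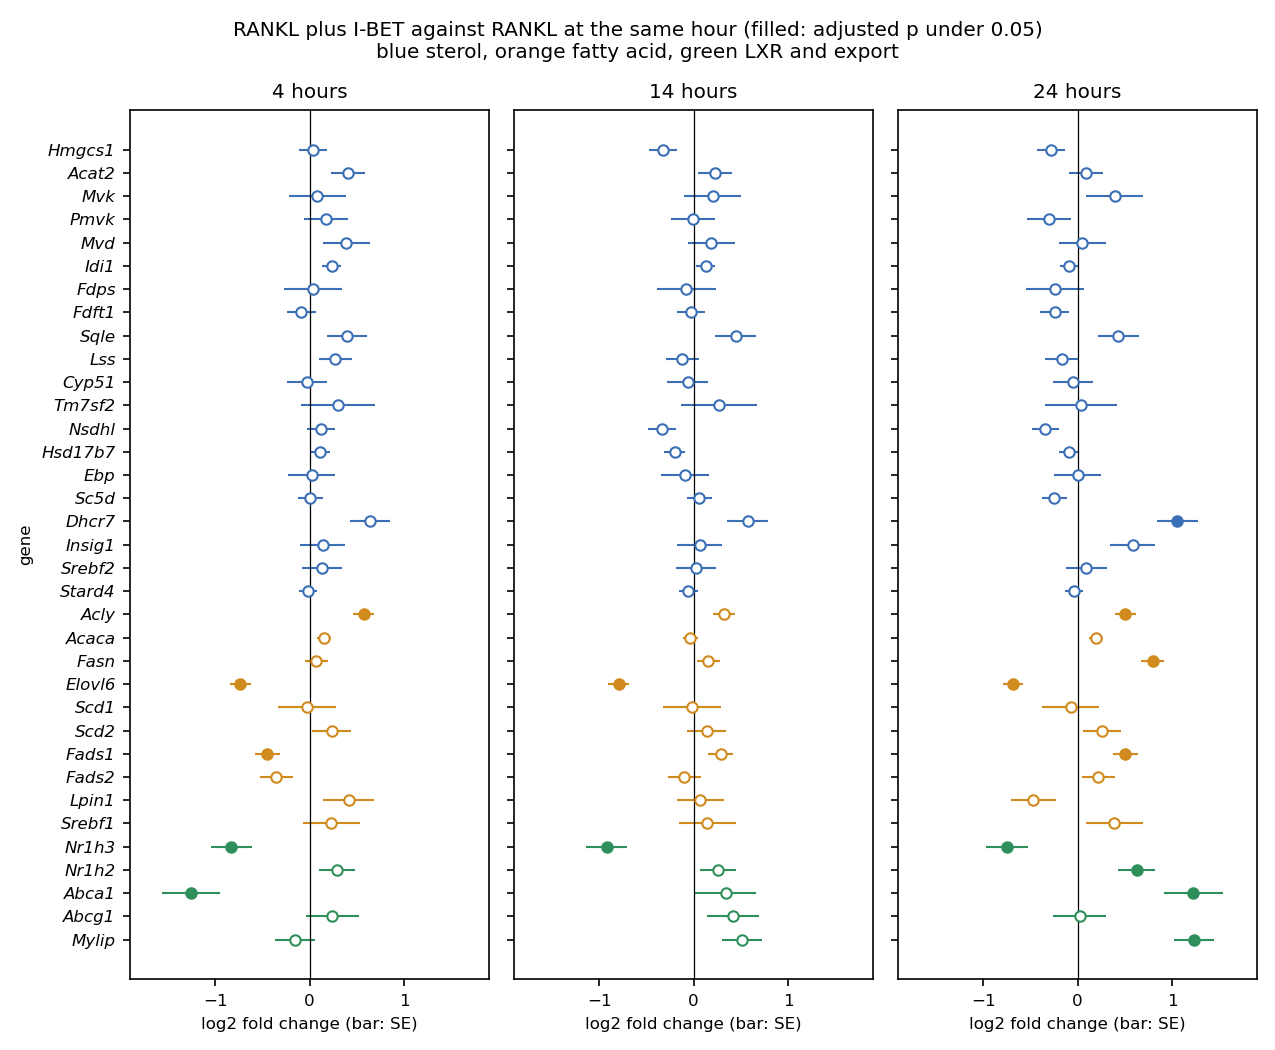
Log2 fold change of combined against RANKL cells (x axis, bars are 1 SE) for the 35 genes (y axis) at 4, 14 and 24 h, filled where adjusted p was under 0.05. Elovl6 and Nr1h3 lie below 0 in all 3 panels, while Abca1 is at -1.26 in the panel of 4 h and 1.22 in that of 24 h.

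Adding RANKL to I-BET gave no call in the set without the replicate block. Combined cells against I-BET cells had 0 of 35 genes called by edgeR at 4, 14 and 24 h, against 0.517%, 0.904% and 0.262% of all tested genes (0.48% higher and 0.0374% lower at 4 h, 0.549% and 0.355% at 14 h, 0.106% and 0.156% at 24 h). At an unadjusted p under 0.05 there were 1, 1 and 0 of the 35, and DESeq2 called 0, 1 and 0. The replicate block likewise called 0, 1 and 0 (3.07%, 6.58% and 2.95% of all genes), the 1 being Hsd17b7 (0.40, adjusted p = 0.133, and 0.00541 with the block). Log2 fold changes ran from -0.29 to 0.63 at 4 h, -0.47 to 0.40 at 14 h and -0.36 to 0.25 at 24 h. The SE of these changes ran from 0.0771 to 0.393 in the fit without the block. Differences of that size were not detectable in that fit, and larger ones, such as that of Abca1 below, were not called either. The lack of calls thus does not show that RANKL left these genes unchanged. Insig1 gave -0.057, 0.25 and 0.082, Srebf1 -0.063, 0.071 and 0.10, Srebf2 0.028, 0.19 and 0.074, Nr1h3 -0.12, 0.047 and -0.055, and Nr1h2 0.042, -0.0003 and -0.078. The gene farthest from 0 at 4 h was Abca1, at 0.412 and 0.284 with I-BET and 0.629 and 0.446 with both (log2 fold change 0.63, SE 0.32, adjusted p = 1). In the further lists 1 gene was called, Rxra at 24 h (-0.71). With the block the further sterol list gave 1 higher and 0 lower at 4 h and 0 higher and 1 lower at 24 h, and the LXR list 0 higher and 1 lower, 0 higher and 3 lower and 0 higher and 3 lower at the 3 hours.

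The last comparison asks whether I-BET acted otherwise on RANKL cells than on cells without RANKL. It takes the I-BET change in RANKL cells minus that in cells without RANKL, where the latter is measured against untreated cells at hour 0, so time in culture enters it. At 4 h no gene of the 35 and none of all 16042 was called by edgeR (0%), although 19 of the 35 and 702 of all had an unadjusted p under 0.05, DESeq2 called 9 of the 35, and the replicate block called 18, all higher and 13 of them sterol genes (1.22% of all genes). At 14 h 1 was called higher, against 2.28% of all genes (2.78% in all), and 13 with the replicate block, 8 of them sterol genes (11.7%). At 24 h 2 were called higher and 1 lower, against 3.94% and 1.32% (5.25% in all), and 5 and 4 with the block (18.3%). The sterol medians were 0.76, 0.42 and -0.0040, and those of all genes 0.010, -0.042 and -0.025. Fads1 was called at 14 h (log2 fold change 0.85, SE 0.19, adjusted p = 0.0239) and 24 h (log2 fold change 0.82, SE 0.19, adjusted p = 0.0183). At 14 h its I-BET change was -0.57 without RANKL and 0.29 with RANKL (adjusted p of the latter = 0.147, and 0.0135 with the block). Mylip at 24 h (log2 fold change 1.26, SE 0.30, adjusted p = 0.0237) had -0.026 without and 1.23 with RANKL. Lpin1 at 24 h (log2 fold change -1.79, SE 0.35, adjusted p = 0.00627) had 1.32 without and -0.47 with RANKL (adjusted p of the latter = 0.17, and 0.0431 with the block). Leaving out 14-hour I-BET library 1, 14-hour RANKL library 1, 14-hour combined library 2, untreated library 1 or untreated library 2 ended the 14 h call of Fads1 (adjusted p = 0.0654 to 0.155). The 24 h call of Lpin1 held with each library of the comparison left out in turn. Leaving out 24-hour I-BET library 1, 24-hour RANKL library 1, 24-hour combined library 1 or untreated library 1 ended the 24 h call of Fads1 (adjusted p = 0.0693 to 0.0885). The 24 h call of Mylip ended without 24-hour I-BET library 2, 24-hour RANKL library 2, 24-hour combined library 1 or untreated library 1 (adjusted p = 0.068 to 0.105). The count at 14 h was 0 without 14-hour I-BET library 1, 14-hour RANKL library 1, 14-hour combined library 2 or either untreated library, and 3 without 14-hour RANKL library 2. At 24 h it was 1 without 24-hour combined library 1 or untreated library 1. Over all tested genes the 14 h count was 446 with all libraries and 339 without 14-hour RANKL library 2, and the 24 h count was 843, with 570 without 24-hour combined library 1 and 647 without untreated library 1.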

How the data were processed

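Poly(A) RNA of 20 libraries from RAW264.7 cells was sequenced in 10 groups of 2, per the labels' protocols. Per the submitters' processing notes the authors used FastQC, STAR 2.5.3a, DESeq2 1.16.1 and GRCm38 (mm10). How reads were counted, and whether by strand, is not given in the sources used here, and the named library kit does not mark strand, so overlapping genes are uncertain. The authors deposited counts and, in a second table, RPKM, and each deposited RPKM is its count over gene length and the library's total.

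Counts (19051780 to 62313792 per library, which set the precision) went into edgeR 4.0.16 (R 4.3.3), with filterByExpr by group (16042 of 50686 genes), TMM factors, 1 mean for each of 10 groups fitted to all 20 libraries (residual degrees of freedom 10), and robust quasi-likelihood F tests and Benjamini-Hochberg adjustment over all tested genes, with calls at adjusted p under 0.05 in 18 comparisons. The SE is the log2 fold change divided by the root of F. Levels are RPKM recomputed with TMM factors, with lengths implied by the deposited values. The code was tested on simulated data. The members, classes and further lists were chosen with earlier results of these data known. Values in libraries were to be printed for up to 4 called genes of largest change per class and comparison, for Srebf1, Srebf2, Insig1, Nr1h3 and Nr1h2, and for genes against their class. Of the further lists up to 3 called genes were named.

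Same-numbered libraries deviated from their group means together in 45 of 45 pairs of groups (correlation 0.221 to 0.596, median 0.454), and the numbers in the sample names put every library 1 ahead of any library 2, so the numbers pair the libraries. The SE and the calls in the text are from the planned fit without the block, which leaves this pairing out. The block is therefore given where it changes the call of a gene printed with statistics or moves a count by over 1.5 times. The biological coefficient of variation was 0.162 without and 0.0751 with the block. Alternatives were DESeq2 1.42.0, RLE factors, library totals, no low-count filter, the libraries of a comparison alone, rRNA-related genes left out, the replicate block, and each library left out in turn, where a group with 1 library is assumed to vary like the others. The block without untreated library 2 was added after its ribosomal RNA was seen. Figures were drawn with matplotlib 3.10.9.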

Additional observations from a re-analysis of the deposited data

Results flagged for a closer look

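In these genes the I-BET change with RANKL minus that without RANKL was called, by a test of the difference itself. The change without RANKL is taken against the untreated libraries of hour 0, so time in culture is part of it. An action of I-BET that depends on RANKL cannot be told apart from time in culture here. Fads1 differed by 0.85 at 14 h (adjusted p = 0.0239, I-BET change 0.29 with and -0.57 without RANKL) and by 0.82 at 24 h (adjusted p = 0.0183, 0.51 and -0.31). Mylip differed by 1.26 at 24 h (adjusted p = 0.0237, 1.23 and -0.026). Lpin1 differed by -1.79 at 24 h (adjusted p = 0.00627, -0.47 and 1.32). These are log2 values with n = 2 libraries per group, tested with edgeR, and the libraries without which the calls of Fads1 and Mylip ended are named with the comparison above.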

How the results depend on the processing

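Of 630 pairs of gene and comparison 151 were called. All 151 calls remained with RLE factors, with DESeq2 and with the replicate block, 8 were lost with library totals, 7 without the low-count filter, 4 without rRNA-related genes, 35 with the libraries of the comparison alone and 69 in at least 1 fit that left out a library. No called change reversed. Library totals without TMM moved the median of all genes by 0.16 (I-BET, 4 h) and -0.13 (difference of I-BET changes, 4 h), and by under 0.1 elsewhere. With these totals the called genes of the set split into 0 higher and 8 lower for RANKL at 14 h (1 and 7 with TMM), 2 and 4 for combined against RANKL at 4 h (1 and 4), 2 and 2 at 14 h (0 and 2), and 1 and 1 for the difference at 24 h (2 and 1). RLE gave 5 and 2 for I-BET at 24 h (5 and 1 with TMM) and 1 and 2 for combined against RANKL at 14 h. Over all tested genes library totals gave 383 higher and 195 lower (RANKL, 4 h, 334 higher and 293 lower with TMM), 1360 higher and 567 lower (I-BET, 4 h, 647 higher and 1039 lower), 1328 higher and 1103 lower (14 h, 849 higher and 1343 lower), 1693 higher and 1408 lower (24 h, 1203 higher and 1636 lower), 62 higher and 74 lower (combined against I-BET, 14 h, 88 higher and 57 lower) and 519 higher and 1079 lower (I-BET, 24 against 4 h, 788 higher and 885 lower).

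The count of called genes among the 35 moved by over 1.5 times as follows, and the cause was not tested beyond the fewer libraries of some fits. With the replicate block it was 18 for RANKL at 14 h and 27, 21 and 17 for I-BET at 4, 14 and 24 h. It was 13, 9 and 18 for combined against RANKL, 1 for combined against I-BET at 14 h, 18, 13 and 9 for the difference of I-BET changes, and 29 and 28 for 24 against 4 h with I-BET and both. With the block and without untreated library 2 it was 15 (RANKL, 14 h), 17 (I-BET, 14 h) and 12, 9 and 6 (difference). With the libraries of the comparison alone it was 11, 3 and 7 for RANKL, 6 for I-BET at 14 h, 0 for combined against RANKL at 4 h, and 1 and 5 for the difference at 4 and 24 h. DESeq2 gave 4 (combined against RANKL, 14 h), 1 (combined against I-BET, 14 h) and 9, 4 and 5 (difference). Without the filter it was 10 (I-BET, 24 h), 4 (combined against RANKL, 14 h) and 10, 4 and 7 (difference), with library totals 4 (combined against RANKL, 14 h), and with RLE 1 (difference, 4 h).

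With 1 library left out the counts ran at 4, 14 and 24 h from 6 to 13, 3 to 8 and 5 to 8 for RANKL, 9 to 12, 4 to 8 and 5 to 5 for I-BET, 2 to 3, 1 to 4 and 5 to 7 for combined against RANKL, 0 to 0 at each hour for combined against I-BET, and 0 to 0, 0 to 3 and 1 to 3 for the difference. For 24 against 4 h they ran from 19 to 22, 13 to 16 and 14 to 16 (RANKL, I-BET and combined). With 2 libraries per group, small changes of low genes such as Tm7sf2, Abca1 and Lpin1 may go undetected. The same holds for genes of higher level with an SE like that of Abca1, such as Srebf1 and Scd1.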
